A study of Mus musculus with 8 samples.

Results

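To copy its genome once per division, a cell needs a defined set of proteins, and 48 genes of that set were followed here in 4 populations of mouse CD4 T cells. The genes were picked by name: factors that license replication origins, proteins of the replication fork, and the E2F factors that regulate them. Earlier results of these data were known when they were picked. All 48 were found among the 24108 named genes of the count table, and all 48 were among the 13989 genes that passed a filter on low counts. In tdTomato-positive GFP cells 37 of the 48 were higher than in tdTomato-positive Thy1.1 cells and 0 were lower. Over all genes tested 8.01% were higher and 6.82% lower. The count of 37 fell when some single libraries were left out, as did the count over all genes. Most of the same genes lay between these 2 populations in tdTomato-negative GFP cells.

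An origin is licensed when the origin recognition complex (ORC), CDC6 and CDT1 load the MCM2-7 helicase onto DNA. In S phase CDC45 and the GINS complex join MCM2-7 to unwind the duplex, polymerase alpha-primase starts each strand, and polymerases delta and epsilon extend it with the help of the sliding clamp PCNA. E2F1 and E2F2 switch on many of these genes as a cell leaves G1, and E2F7 and E2F8 repress them later in the cycle. Resting T cells hold most of these transcripts at low levels, and T cells that enter division raise them.

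The mice had the genotype Foxp3 DTR-GFP/Thy1.1, CD4 CreER/wt, R26 lsl-tdTomato/wt. One Foxp3 reporter therefore made GFP with the diphtheria toxin receptor and the other made Thy1.1. Under CD4 control, a Cre that needs tamoxifen could turn on tdTomato. Tamoxifen was given to animals reared on AVNM (the labels leave this abbreviation unexplained) plus a diet of defined amino acids, so that Foxp3-negative CD4 T cells outside the thymus became tdTomato-positive over about 3 weeks under diphtheria toxin. Chow and SPF fecal microbiota came next, and cells were sorted from mesenteric lymph nodes on day 12 of colonization. The populations were tdTomato-positive GFP, tdTomato-positive Thy1.1, tdTomato-negative GFP and tdTomato-negative Thy1.1 cells, each with 2 libraries, and are called marked or unmarked GFP or Thy1.1 cells below. All 4 came from mice of this 1 genotype that had received tamoxifen, toxin and microbiota alike. The labels do not say whether the Thy1.1 allele makes Foxp3 protein, nor whether paired libraries stem from different mice. A p-value here therefore reflects a spread between libraries that may be technical.

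Library totals lay between 38085686 and 47908198 counts. Values are CPM, that is, counts scaled to a common library total with TMM factors, and 3 counts correspond to 0.06136 to 0.08058 CPM. The T cell genes Cd3e, Cd4, Foxp3, Il2ra and Ctla4 summed to 3900 and 3940 CPM in marked GFP cells, 2860 and 2970 CPM in marked Thy1.1 cells, 3150 and 3280 CPM in unmarked GFP cells, and 2660 and 2900 CPM in unmarked Thy1.1 cells. The list did not move as 1: Ctla4 and Cd4 were higher in marked GFP than in marked Thy1.1 cells, by 1.39 ± 0.15 and 0.56 ± 0.09 on the log2 scale (edgeR adjusted p = 0.00193 and 0.00742), Foxp3 was lower, with 126 and 141 CPM in marked GFP cells and 186 and 187 CPM in marked Thy1.1 cells (-0.48 ± 0.12, adjusted p = 0.0314), and Cd3e and Il2ra did not pass. Between unmarked GFP and unmarked Thy1.1 cells Foxp3 did not pass (-0.27 ± 0.12, adjusted p = 0.43). Of the erythroid list, Hba-a2 and Hbb-bs were found chiefly in marked GFP library 3, where the list summed to 47.5 CPM, against 5.37 CPM in library 4 and 1.73 to 3.72 CPM in the other populations. Unmarked GFP library 3 alone held the dendritic cell genes H2-Aa at 34 CPM and Siglech at 36.8 CPM, against 0 to 1.31 CPM in the other 7 libraries. B cell markers summed to 8.43 and 17.8 CPM in marked GFP cells, 39.1 and 42.3 CPM in marked Thy1.1 cells, 18.7 and 22.4 CPM in unmarked GFP cells, and 37.7 and 43.4 CPM in unmarked Thy1.1 cells. CD8 and NK cell markers summed to 12.7 and 17.7 CPM in marked GFP cells and to 15.5 to 41 CPM in the other populations. Of the 4 tested, edgeR called 1 lower in marked GFP than in marked Thy1.1 cells and 2 lower than in unmarked GFP cells. The immature thymocyte list summed to 28.9 and 27 CPM in marked GFP cells and to 71.7 to 90 CPM in the others; most of that was Cd1d1, which was lower in marked GFP than in marked Thy1.1 cells (-1.67 ± 0.13, adjusted p = 0.000816) and also passed in the test of whether that difference differed between marked and unmarked cells (-1.63 ± 0.18, adjusted p = 0.0165), and Rag1 was at 0 in every library. The myeloid and dendritic list summed to 157 and 136 CPM in marked GFP cells, 77.2 and 79.1 CPM in marked Thy1.1 cells, 194 and 85.9 CPM in unmarked GFP cells and 64.9 and 66.8 CPM in unmarked Thy1.1 cells, with Clec9a at 0 throughout and Cst3 higher in marked GFP cells than in marked Thy1.1 and unmarked GFP cells (0.80 ± 0.13 and 0.64 ± 0.13, adjusted p = 0.00722 and 0.0193). The plasma cell list, nearly all of it Xbp1, summed to 289 and 330 CPM in marked GFP cells, 172 and 202 CPM in marked Thy1.1 cells, 228 and 258 CPM in unmarked GFP cells and 173 and 175 CPM in unmarked Thy1.1 cells. Between the marked populations, 1 of 3 tested erythroid genes and 1 of 4 tested plasma cell genes were called higher in GFP cells. How far such other cells contributed to the results was not tested.

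The 48 genes together summed to 4090 and 3753 CPM in marked GFP cells, 2009 and 1897 CPM in marked Thy1.1 cells, 2759 and 2432 CPM in unmarked GFP cells, and 2109 and 2008 CPM in unmarked Thy1.1 cells. Marked GFP cells had the highest mean for 42 of the 48 genes, and unmarked GFP cells came second for 36. Marked GFP cells were highest for 37.6% of all genes tested. In 35 of the 48, both marked GFP libraries lay above all 6 other libraries, which held for 19.3% of all genes tested. No member had both libraries of any other population above the rest. The 2 Thy1.1 populations differed little in their sums, and their order was mixed. With marked GFP cells on top and unmarked GFP cells second, 22 members had marked Thy1.1 cells at the bottom. Another 14 had unmarked Thy1.1 cells at the bottom below the same top 2. These 2 orders held for 6.84% and 11.5% of all genes tested. Bulk RNA cannot tell apart fewer dividing cells and less RNA per dividing cell.

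**Figure D1:**
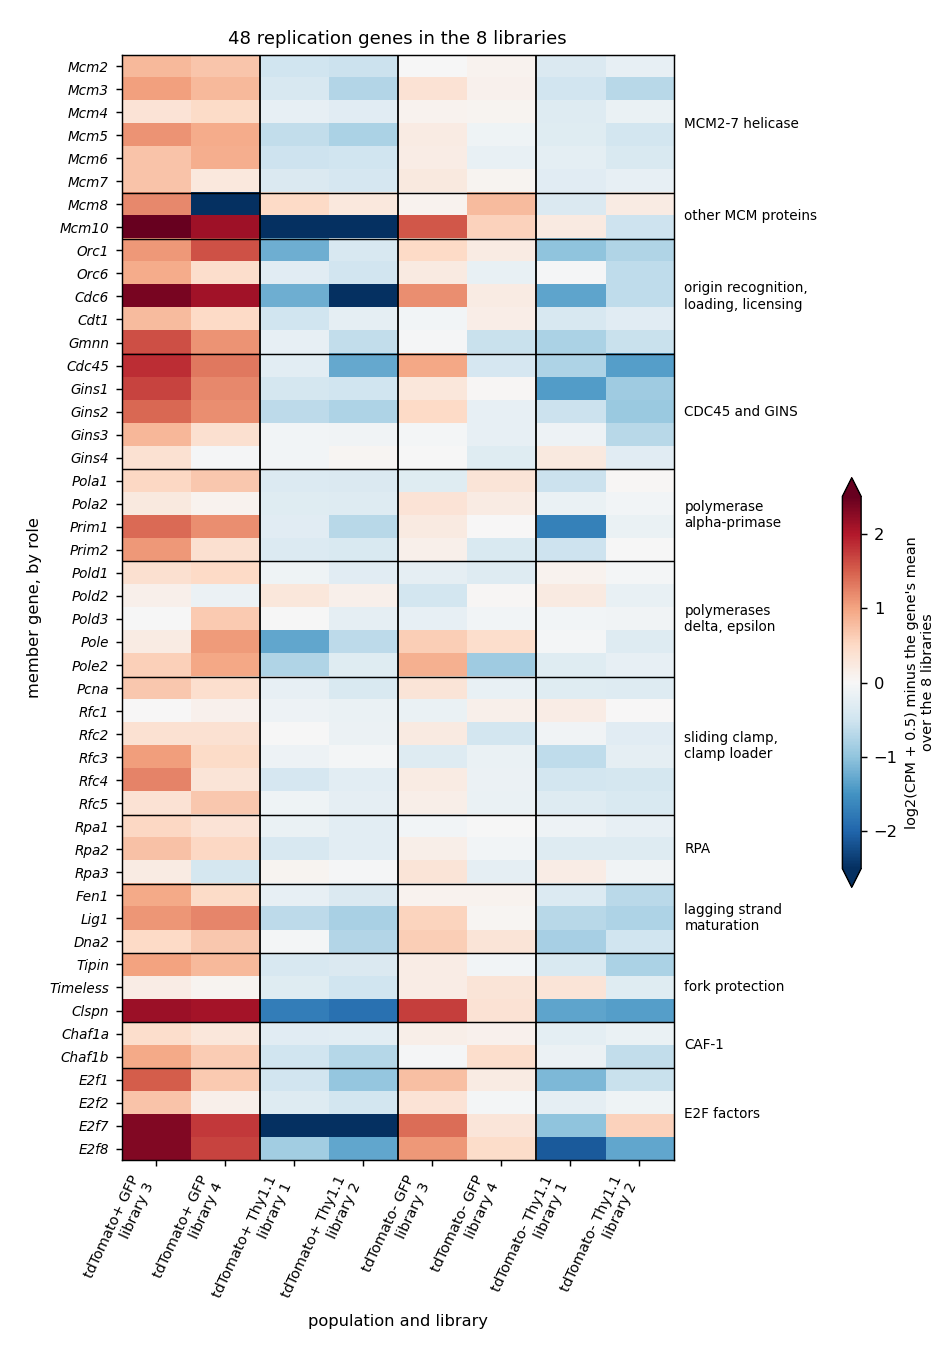
Heat map of the 48 replication genes (rows, grouped by role) in the 8 libraries (columns). Colour is log2(CPM + 0.5) minus the mean of that gene over the 8 libraries, with the scale capped at 2.5 in either direction. The 2 marked GFP columns are red for most genes, both Thy1.1 populations are mostly blue, and unmarked GFP cells lie between. The darkest blue squares are Mcm10 and E2f7 in both marked Thy1.1 libraries, Cdc6 in marked Thy1.1 library 2 and Mcm8 in marked GFP library 4.

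Promoters of the members were read for the sequence that E2F factors are known to bind. RefSeq promoters of GRCm38.p6, each 250 bases before and 50 bases after the annotated start, were matched by symbol to 39 of the 48 members with 45 entries; Mcm4, Gmnn, Gins1, Gins2, Gins4, Prim2, Pole, Rfc2 and Tipin had none. An E2F octamer (TTTCCCGC, TTTCGCGC, TTTGCCGC or TTTGGCGC, on either strand) was present in 18 of the 45 entries (40.0%) and in 2.26% of all 32851 promoters of the same length. A CCAAT box (CCAAT, either strand) was in 60.0% of member entries and in 37.4% of all. In lists followed beside the members, octamers were in 36.4% of entries for other E2F and pocket protein genes and 23.7% for other replication genes. They were in 22.2% for G1/S kinase genes and 6.25% for mitosis genes. The CCAAT shares of those lists, in the same order, were 18.2%, 42.1%, 55.6% and 87.5%. The cell cycle homology region (TTTGAA, either strand), known from genes of mitosis, was in 15.6% of member entries and 17.9% of all, against 68.8% of the 16 entries matched to 15 of 18 mitosis genes followed beside the members. Matches are a description and do not show binding.

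The 250 bases before the start are printed for 6 members whose levels carry the results below: 3 of them load or form the helicase at origins (Mcm5, Mcm6 and Cdc6), Orc1 marks origins, E2f7 is the repressor, and Mcm10 had the largest difference of all members. Each run reads 5′ to 3′ on the strand of its gene. Capitals mark E2F octamers in the first 5 and CCAAT boxes in Mcm10, whose window and following 50 bases held no octamer. In Mcm6 and in Mcm5 a pair of octamers on opposite strands overlap, so that 1 block of capitals stands for both, and Mcm6 has another one nearer the start. The windows are chr1:128359706-128359955 on the minus strand for Mcm6, chr8:75109259-75109508 on the plus strand for Mcm5, chr11:98907901-98908150 on the plus strand for Cdc6, chr4:108579204-108579453 on the plus strand for Orc1, chr10:110745189-110745438 on the plus strand for E2f7 and chr2:5012792-5013041 on the minus strand for Mcm10.
Mcm6: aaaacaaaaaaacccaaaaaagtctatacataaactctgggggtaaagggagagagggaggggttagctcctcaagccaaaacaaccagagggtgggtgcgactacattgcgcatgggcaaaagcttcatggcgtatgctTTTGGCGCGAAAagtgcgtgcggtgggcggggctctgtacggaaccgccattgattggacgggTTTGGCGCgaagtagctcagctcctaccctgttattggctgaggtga
Mcm5: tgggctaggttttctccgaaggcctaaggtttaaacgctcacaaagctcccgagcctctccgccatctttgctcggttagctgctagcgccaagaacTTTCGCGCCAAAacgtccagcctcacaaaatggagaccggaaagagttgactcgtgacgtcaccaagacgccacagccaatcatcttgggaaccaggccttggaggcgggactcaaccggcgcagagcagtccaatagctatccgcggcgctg
Cdc6: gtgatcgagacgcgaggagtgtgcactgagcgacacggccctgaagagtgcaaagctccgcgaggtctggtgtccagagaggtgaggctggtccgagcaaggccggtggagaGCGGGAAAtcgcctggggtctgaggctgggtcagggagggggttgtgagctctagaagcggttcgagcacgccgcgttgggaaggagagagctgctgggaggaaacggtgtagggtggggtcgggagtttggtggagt
Orc1: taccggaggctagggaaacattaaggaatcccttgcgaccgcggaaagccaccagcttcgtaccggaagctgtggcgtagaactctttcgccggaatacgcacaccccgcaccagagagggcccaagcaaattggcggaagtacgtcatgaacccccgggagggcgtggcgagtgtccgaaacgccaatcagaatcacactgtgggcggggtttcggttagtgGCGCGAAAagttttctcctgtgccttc
E2f7: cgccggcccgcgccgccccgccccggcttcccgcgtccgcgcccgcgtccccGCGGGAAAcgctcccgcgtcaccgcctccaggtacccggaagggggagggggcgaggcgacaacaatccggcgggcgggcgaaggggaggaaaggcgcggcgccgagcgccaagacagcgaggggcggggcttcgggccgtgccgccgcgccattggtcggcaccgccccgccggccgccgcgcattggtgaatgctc
Mcm10: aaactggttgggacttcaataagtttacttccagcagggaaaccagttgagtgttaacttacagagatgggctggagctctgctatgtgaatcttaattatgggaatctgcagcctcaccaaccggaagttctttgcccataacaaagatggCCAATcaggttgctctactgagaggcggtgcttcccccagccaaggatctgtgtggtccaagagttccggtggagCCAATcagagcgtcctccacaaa

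The 18 members with an octamer held 24 of them, 12 before the start and 12 after it. In 9 members every octamer lay after the start. By role, octamers were found in 4 of 5 matched MCM2-7 genes, in 3 of 4 matched origin and licensing genes, in 0 of 3 replication protein A genes and in 0 of 2 chromatin assembly factor genes. Their share did not follow the calls: 14 of 35 entries of members that were higher in marked GFP than in marked Thy1.1 cells held one (40.0%), and 4 of 10 entries of members that did not pass the test (40.0%).

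**Figure D2:**
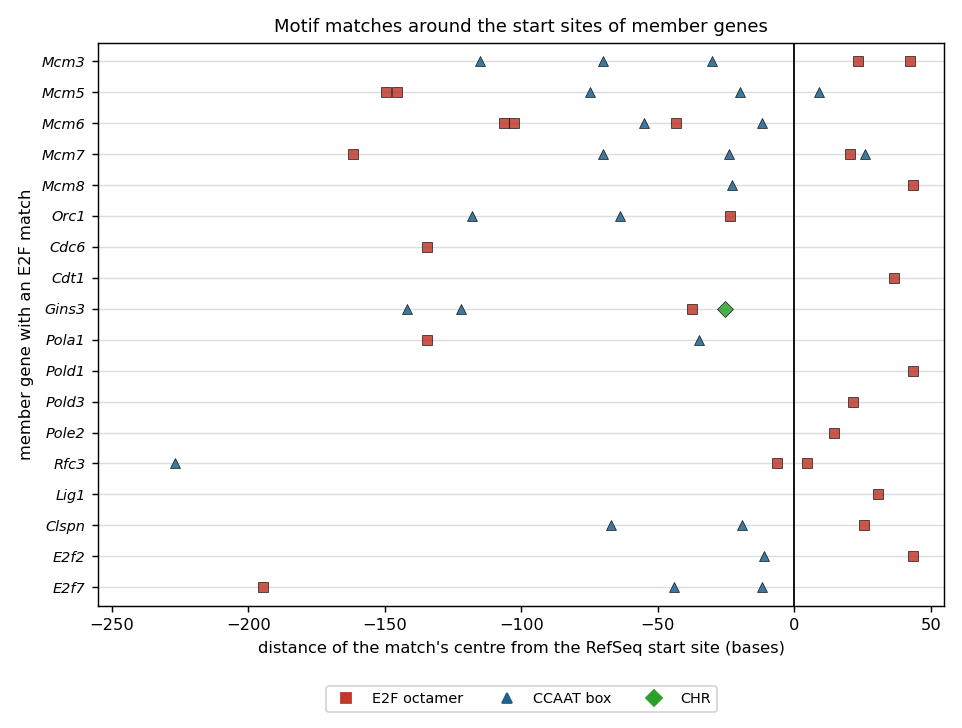
Positions of motif matches in the 18 member genes with an E2F octamer. The x axis is the distance in bases from the RefSeq start site to the centre of each match, squares are E2F octamers, triangles CCAAT boxes and the diamond the cell cycle homology region. Octamers lie on both sides of the start, 12 before it and 12 after it, and the farthest upstream is that of E2f7.

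The first comparison set GFP against Thy1.1 among marked cells. Only the GFP reporter carries the toxin receptor, so the labels do not show that marked Thy1.1 cells had all been Foxp3-negative. The 2 populations may therefore differ in history as well as in reporter, which was not tested. The quasi-likelihood test of edgeR, with p-values adjusted by Benjamini-Hochberg over 13989 genes, called 37 members higher in GFP cells and 0 lower, and 11 did not pass. Over all genes 8.01% were called higher and 6.82% lower. Both GFP libraries lay above both Thy1.1 libraries for 43 members, against 29.5% of all genes, and below them for 1. The median log2 fold change was 1.06 over members and -0.01 over all genes tested. The count of 37 fell without marked GFP library 3 or either marked Thy1.1 library, in fits that leave a population with 1 library. The count over all genes fell in the same fits. Over every fit run, the median over members ranged from 0.81 to 1.17. Only Mcm2, Mcm3, Mcm5, Mcm6, Mcm10, Cdc6, Lig1, Clspn and E2f7 kept their call whichever library was left out.

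All 6 genes of the MCM2-7 helicase, the ring that unwinds DNA at the fork, were higher in marked GFP cells, with log2 fold changes from 0.67 to 1.74. Mcm5 had 214 and 187 CPM in marked GFP cells, against 63.9 and 56.6 CPM in marked Thy1.1 cells, a log2 fold change of 1.74 ± 0.15 (standard error, adjusted p = 0.000886). The 2 groups stood far apart, with a 3.33-fold difference. For Mcm3 the marked GFP libraries had 221 and 190 CPM and the marked Thy1.1 libraries 81.2 and 64.9 CPM (1.49 ± 0.16, adjusted p = 0.00207). Mcm6 was the helicase subunit with the most reads, at 520 and 595 CPM in marked GFP cells and 224 and 226 CPM in marked Thy1.1 cells (1.31 ± 0.13, adjusted p = 0.00182). Mcm2 stood at 228 and 211 CPM in marked GFP cells, against 91.7 and 89.7 CPM in marked Thy1.1 cells (1.27 ± 0.11, adjusted p = 0.000842), with tight pairs on both sides. The smallest changes of the ring were those of Mcm7, at 161 and 118 CPM in marked GFP cells and 76.1 and 73.7 CPM in marked Thy1.1 cells (0.90 ± 0.16, adjusted p = 0.0095), and Mcm4, at 202 and 222 CPM in marked GFP cells and 137 and 130 CPM in marked Thy1.1 cells (0.67 ± 0.10, adjusted p = 0.00632). Per kilobase of exon, Mcm6 was also the most abundant of all 48 members, with 119.0 CPM per kb in marked GFP cells and 48.2 CPM per kb in marked Thy1.1 cells. Mcm7 exons overlap 2 miRNA genes on its own strand and 2 genes on the other, by at most 7.3% of its exon bases, and the library kit does not record strand.

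**Figure D3:**
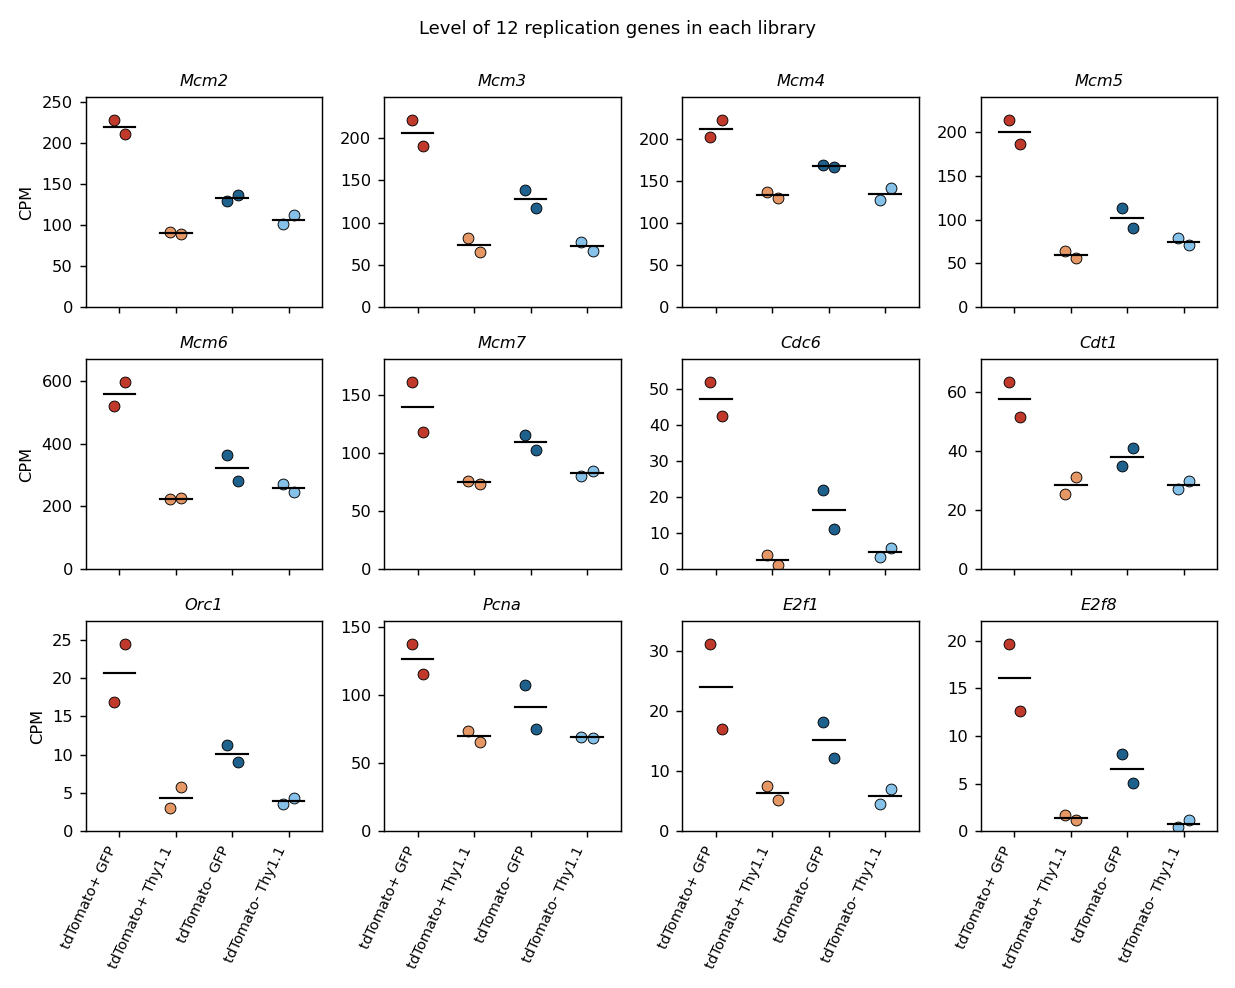
CPM of 12 replication genes in each library. Each point is 1 library, bars are means of 2, each y axis starts at 0, and the populations run from marked GFP and marked Thy1.1 to unmarked GFP and unmarked Thy1.1 cells. Marked GFP points lie above those of both Thy1.1 populations in all 12 panels, and those of unmarked GFP cells lie lower than those of marked GFP cells in 11 panels and overlap them for E2f1.

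The MCM relatives outside the ring went separate ways. Mcm10, which helps activate the loaded helicase, had 27.5 and 20.7 CPM in marked GFP cells, against 0.0409 and 0 CPM in marked Thy1.1 cells. These are 1987 counts in the GFP libraries and 2 counts in the Thy1.1 libraries, a ratio of 1130 with a 95% interval of 312 to 9330 for counting error only. The fitted log2 fold change was 9.95 ± 0.86 (adjusted p = 0.000886), a size that depends on the small count the fit adds, and moved to 13.01 when marked Thy1.1 library 1 was left out and to 9.06 when library 2 was. Unmarked Thy1.1 cells did hold Mcm10, at 5.21 and 2.9 CPM. Mcm8, which acts in homologous recombination, had 8.08 and 0.0806 CPM in marked GFP cells and 4.75 and 3.93 CPM in marked Thy1.1 cells (-0.09 ± 1.33, adjusted p = 0.98). Its 2 GFP libraries lay on opposite sides of the Thy1.1 pair, with 358 and 3 counts; without GFP library 3 the value was -5.75 (adjusted p = 0.0141), and without GFP library 4 it was 0.88 (adjusted p = 0.343).

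Genes that mark origins, load the helicase and control licensing were all higher in marked GFP cells, 5 of 5. Cdc6, the loader ATPase, had 52 and 42.5 CPM in marked GFP cells, against 3.82 and 1.12 CPM in marked Thy1.1 cells (log2 fold change 4.25 ± 0.63, adjusted p = 0.00542). That 19-fold difference was the largest of this role, and on the log2 scale it moved to 5.34 when marked Thy1.1 library 1 was left out and to 3.58 when library 2 was. Orc1, the ORC subunit that comes and goes with the cycle, had 16.9 and 24.4 CPM in marked GFP cells and 3.05 and 5.74 CPM in marked Thy1.1 cells (2.23 ± 0.40, adjusted p = 0.0105). Gmnn encodes geminin, which blocks CDT1 once S phase has begun, and had 56.1 and 39.9 CPM in marked GFP cells, against 15.4 and 11.6 CPM in marked Thy1.1 cells (1.83 ± 0.29, adjusted p = 0.00675). Cdt1 itself had 63.4 and 51.8 CPM in marked GFP cells and 25.5 and 31.3 CPM in marked Thy1.1 cells (1.02 ± 0.19, adjusted p = 0.0115), and Orc6 had 50.7 and 36 CPM in marked GFP cells and 21.6 and 18.8 CPM in marked Thy1.1 cells (1.1 ± 0.28, adjusted p = 0.0368). No library of marked Thy1.1 cells reached a marked GFP library for any of these 5 genes.

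ORC subunits outside the 48 did not share this change. Orc2 was lower in marked GFP cells, at 36.7 and 34.3 CPM, against 60.1 and 53.6 CPM in marked Thy1.1 cells (-0.68 ± 0.14, adjusted p = 0.0195). Orc3, Orc4 and Orc5 did not pass the test, with log2 fold changes of -0.01 ± 0.16, -0.13 ± 0.17 and -0.42 ± 0.19 (adjusted p = 0.972, 0.667 and 0.174). Exons of Orc2 share 29.8% of their bases with Nif3l1 on the other strand, so its reads are uncertain, and its call was lost without marked GFP library 4 or either marked Thy1.1 library.

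CDC45 and GINS, which turn the loaded MCM ring into a working helicase, had 3 of 5 genes higher. Cdc45 had 34.1 and 23.4 CPM in marked GFP cells and 7.55 and 3.45 CPM in marked Thy1.1 cells (2.39 ± 0.58, adjusted p = 0.0303). Gins1 and Gins2 were also higher, by 2.13 ± 0.48 and 2.11 ± 0.34 (adjusted p = 0.023 and 0.00723). Reads of Gins2 are uncertain because 67.3% of its exon bases overlap Gse1 on the other strand. The remaining 2 subunits of this 4-part complex did not pass: Gins3 at 37.5 and 27.8 CPM in marked GFP cells and 19.8 and 19.6 CPM in marked Thy1.1 cells (0.73 ± 0.25, adjusted p = 0.0968), and Gins4 at 64.1 and 48 CPM in marked GFP cells and 46.6 and 50.8 CPM in marked Thy1.1 cells (0.20 ± 0.22, adjusted p = 0.605). Log2 fold changes of the GINS genes ranged from 0.20 to 2.13, and the differences among them were not tested.

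All 4 genes of polymerase alpha-primase, which lays down the first stretch of each new strand, were higher in marked GFP cells. Prim1, the catalytic primase subunit, changed most, with 59.2 and 49.4 CPM in marked GFP cells and 17.8 and 13.3 CPM in marked Thy1.1 cells (1.81 ± 0.45, adjusted p = 0.0341). Prim2, its partner, had a log2 fold change of 1.18 ± 0.32 (adjusted p = 0.0437), the catalytic polymerase subunit Pola1 one of 0.96 ± 0.26 (adjusted p = 0.0432), and the accessory subunit Pola2 one of 0.48 ± 0.13 (adjusted p = 0.042). Pola2 had the smallest change of all 37 called members.

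Polymerases delta and epsilon, which extend the strands, had 2 of 5 genes higher, and those 2 were the catalytic subunits. Pole had 11.8 and 21.8 CPM in marked GFP cells and 3.82 and 6.22 CPM in marked Thy1.1 cells (1.74 ± 0.39, adjusted p = 0.0227). Pold1 had 99.1 and 106 CPM in marked GFP cells, against 70.3 and 62 CPM in marked Thy1.1 cells (0.64 ± 0.12, adjusted p = 0.0144). Of the accessory subunits, Pole2 had a log2 fold change of 1.35 ± 0.53, Pold3 of 0.48 ± 0.21 and Pold2 of -0.21 ± 0.22 (adjusted p = 0.13, 0.181 and 0.574). Pold2 was the 1 member with both GFP libraries below both Thy1.1 libraries, at 53 and 44.3 CPM in marked GFP cells, against 59.4 and 53.3 CPM in marked Thy1.1 cells. Pole2 passed with DESeq2 (1.33, adjusted p = 0.044).

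Pcna, the sliding clamp, had 137 and 115 CPM in marked GFP cells and 73.8 and 65.5 CPM in marked Thy1.1 cells (0.85 ± 0.18, adjusted p = 0.0193). Of the 5 subunits of replication factor C, which loads the clamp, 3 were higher: Rfc4 by 1.21 ± 0.31, Rfc3 by 0.89 ± 0.25 and Rfc5 by 0.70 ± 0.18 (adjusted p = 0.0351, 0.048 and 0.04). Rfc4 had 52.1 and 27.4 CPM in marked GFP cells and 16.2 and 18.1 CPM in marked Thy1.1 cells, and its change was 0.62 without GFP library 3 (adjusted p = 0.169). Rfc1 and Rfc2 did not pass, with 0.21 ± 0.14 and 0.47 ± 0.21 (adjusted p = 0.367 and 0.175). Exon overlap with genes on the other strand took 15.1% of the bases of Rfc2, 12.7% of Rfc4 and 10.7% of Rfc5.

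Replication protein A coats single-stranded DNA, and its 2 larger subunits were higher in marked GFP cells. Rpa1 had 332 and 297 CPM in marked GFP cells and 208 and 194 CPM in marked Thy1.1 cells (0.64 ± 0.10, adjusted p = 0.00553), and Rpa2 had 105 and 89.7 CPM in marked GFP cells and 47.3 and 52.6 CPM in marked Thy1.1 cells (0.96 ± 0.14, adjusted p = 0.00553). The smallest subunit, Rpa3, had overlapping groups, at 34.9 and 22.3 CPM in marked GFP cells and 31.8 and 29.7 CPM in marked Thy1.1 cells (-0.10 ± 0.27, adjusted p = 0.842).

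On the lagging strand, Lig1, the ligase that seals Okazaki fragments, had 92.3 and 100 CPM in marked GFP cells, against 27.2 and 24.1 CPM in marked Thy1.1 cells (1.91 ± 0.19, adjusted p = 0.0017). Fen1, the flap nuclease that acts before it, was higher by 1.01 ± 0.19 (adjusted p = 0.012), though 78.8% of its exon bases overlap the antisense gene Gm10143. Dna2, another flap nuclease, had 10.1 and 11.5 CPM in marked GFP cells and 6.77 and 4.05 CPM in marked Thy1.1 cells, groups that did not overlap but did not pass (1 ± 0.38, adjusted p = 0.12).

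Proteins that protect stalled forks were led by Clspn, which encodes claspin, the adaptor of the replication checkpoint. It had 12.7 and 12.2 CPM in marked GFP cells and 0.409 and 0.32 CPM in marked Thy1.1 cells (5.08 ± 0.64, adjusted p = 0.00311), a 33.9-fold difference. Tipin had 87.5 and 76.3 CPM in marked GFP cells, against 32.9 and 33.4 CPM in marked Thy1.1 cells (1.30 ± 0.19, adjusted p = 0.00504). Its binding partner Timeless did not pass, at 50.4 and 46.8 CPM in marked GFP cells and 36 and 31.2 CPM in marked Thy1.1 cells (0.53 ± 0.22, adjusted p = 0.143). Chaf1a and Chaf1b encode the large subunits of chromatin assembly factor 1, which puts histones on new DNA, and both were higher, by 0.64 ± 0.12 and 1.42 ± 0.24 (adjusted p = 0.0136 and 0.00912). For Chaf1a 52.5% of exon bases overlap Ubxn6 on the other strand.

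All 4 E2F factors were higher in marked GFP cells, the repressors more than the activators. E2f7 had 17.8 and 12.1 CPM in marked GFP cells, against 0.0409 and 0.114 CPM in marked Thy1.1 cells, which are 2 and 5 counts (7.56 ± 0.98, adjusted p = 0.00334). E2f8 had 19.6 and 12.6 CPM in marked GFP cells, against 1.72 and 1.14 CPM in marked Thy1.1 cells (3.49 ± 0.59, adjusted p = 0.00885). Among the activators, E2f1 had 31.1 and 17 CPM in marked GFP cells and 7.47 and 5.12 CPM in marked Thy1.1 cells (1.93 ± 0.41, adjusted p = 0.0198), and E2f2 had 94.7 and 63.1 CPM in marked GFP cells and 45.6 and 41.4 CPM in marked Thy1.1 cells (0.86 ± 0.22, adjusted p = 0.0359). The difference between repressors and activators was not tested. As with Mcm10, the level of E2f7 in marked Thy1.1 cells was near that of 3 counts, while unmarked Thy1.1 cells had 1.33 and 5.02 CPM.

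Members that were scarce in unmarked Thy1.1 cells differed more between the marked populations than abundant ones. With 10 CPM in unmarked Thy1.1 cells as the boundary, the 13 scarcer members had a median log2 fold change of 2.23 between marked GFP and marked Thy1.1 cells, and 11 of them were called higher. The 35 more abundant members had a median of 0.9, and 26 were called higher. As shares, 84.6% of the scarcer and 74.3% of the more abundant members were called higher. Over all genes tested these shares were 4.21% and 10%, and the medians were 0 and -0.01. The differences between these shares were not tested. This boundary was set on the libraries of a population outside the comparison, but those libraries also entered the fit. The median log2 difference of members between marked and unmarked Thy1.1 cells was -0.01. The split is therefore not independent of levels in marked Thy1.1 cells.

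**Figure D4:**
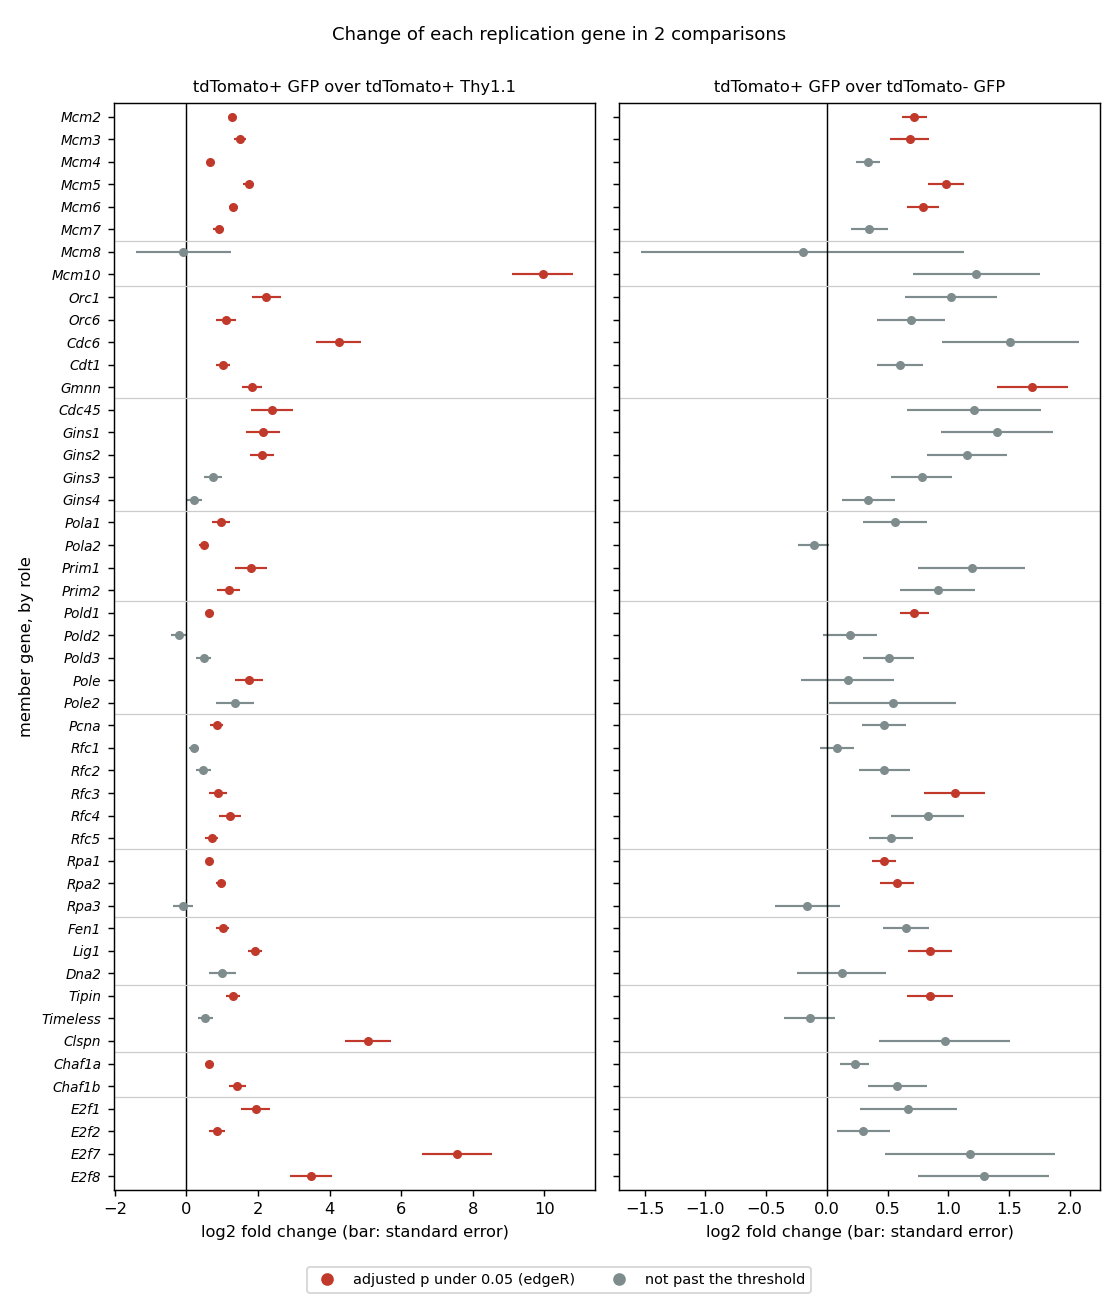
Log2 fold change of each of the 48 genes with its standard error, for marked GFP over marked Thy1.1 cells (left) and marked GFP over unmarked GFP cells (right), on separate x axes. Red points passed an adjusted p of 0.05 in edgeR and grey points did not; 37 genes are red on the left and 11 on the right, and the 2 panels share the marked GFP libraries.

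Other genes of replication and of the cycle were read from lists beside the members. Of 34 other replication genes 33 could be tested, with Pold4 listed at 0 in every library; 10 were higher in marked GFP cells and 1, Orc2, was lower, with a median of 0.31. The count of 10 fell without marked GFP library 3 or any Thy1.1 library, as did the count over all genes. The most clearly changed were Uhrf1, which carries DNA methylation onto the new strand (121 and 76.5 CPM in marked GFP cells, 11.5 and 8.78 CPM in marked Thy1.1 cells, 3.29 ± 0.28, adjusted p = 0.000886), the histone chaperone gene Asf1b (2.36 ± 0.23, adjusted p = 0.0016), Ticrr, a factor for helicase activation (3.58 ± 0.50, adjusted p = 0.00445), and Slbp, the histone mRNA binding protein gene (1.08 ± 0.16, adjusted p = 0.00556). Cyclin and kinase genes of the G1/S step had 5 of 9 higher, among them Ccna2 by 2.60 ± 0.22 (adjusted p = 0.000886), Ccne2 by 2.08 ± 0.24 (adjusted p = 0.00252), Ccne1 by 2.48 ± 0.30 (adjusted p = 0.00278) and Cdk2 by 0.86 ± 0.15 (adjusted p = 0.00868). Of the other E2F and pocket protein genes 3 of 11 were higher: Rb1, E2f4 and Tfdp1, by 0.73 ± 0.09, 0.64 ± 0.11 and 0.71 ± 0.17 (adjusted p = 0.00292, 0.00843 and 0.0303). The mitosis list had 17 of 18 higher with a median of 2.92, and summed to 676.1 and 515.9 CPM in marked GFP cells and 95.95 and 80.58 CPM in marked Thy1.1 cells. Its smallest adjusted p were those of Birc5 (5.84 ± 0.51, adjusted p = 0.000886), Nusap1 (3.83 ± 0.43, adjusted p = 0.00227), Ccnb2 (6.59 ± 0.80, adjusted p = 0.00278) and Prc1 (2.16 ± 0.28, adjusted p = 0.00334), genes of chromosome segregation and cell division.

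The second comparison set marked against unmarked GFP cells. By the labels' protocol the marked cells were meant to be Foxp3-negative when labelled before colonization, and the unmarked ones are the remaining GFP cells of the node. Whether all marked GFP cells had been Foxp3-negative was not tested. Of the 48 members 11 were higher in marked cells, 0 were lower, and 44 had a positive log2 fold change, with a median of 0.66 against 0.03 over all genes. Over all genes 6.24% were called higher and 6.4% lower. Both marked libraries lay above both unmarked ones for 36 members, against 28.9% of all genes. The count of 11 depended on the fit. It was 0 when only these 2 populations were fitted, where 107 of 13130 genes were called higher. It was 19 with DESeq2, which called 10% of all genes higher. It fell without marked GFP library 3, unmarked GFP library 4 or any Thy1.1 library, as did the count over all genes. Over every fit run, the median over members ranged from 0.5 to 0.79. Mcm2 alone passed whichever library was left out.

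The 11 called members came from several roles. The helicase gave 4: Mcm2 with 228 and 211 CPM in marked and 129 and 137 CPM in unmarked GFP cells (0.72 ± 0.10, adjusted p = 0.00619), Mcm5 with 214 and 187 CPM in marked and 113 and 90.6 CPM in unmarked cells (0.98 ± 0.15, adjusted p = 0.0073), Mcm6 by 0.79 ± 0.13 (adjusted p = 0.0112) and Mcm3 by 0.68 ± 0.16 (adjusted p = 0.031). Gmnn, the CDT1 inhibitor, had the largest change, with 56.1 and 39.9 CPM in marked and 17.6 and 12.1 CPM in unmarked GFP cells (1.69 ± 0.29, adjusted p = 0.0112). The others were Rfc3 by 1.05 ± 0.25, Lig1 and Tipin each by 0.85 with errors of 0.18 and 0.19, Pold1 by 0.72 ± 0.12, Rpa2 by 0.58 ± 0.14 and Rpa1 by 0.47 ± 0.10, with adjusted p-values of 0.0322, 0.0259, 0.026, 0.0121, 0.0352 and 0.0208.

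Several members with large differences between the reporters did not pass between marked and unmarked GFP cells. Cdc6 had 52 and 42.5 CPM in marked and 22 and 11.1 CPM in unmarked GFP cells, without overlap (1.51 ± 0.56, adjusted p = 0.118). Orc1, Cdt1 and Pcna also had both marked libraries above both unmarked ones, with 1.02 ± 0.38, 0.60 ± 0.19 and 0.47 ± 0.18 (adjusted p = 0.122, 0.0735 and 0.132). E2f8 had 19.6 and 12.6 CPM in marked and 8.11 and 5.02 CPM in unmarked cells (1.29 ± 0.54, adjusted p = 0.161), and the 2 groups of E2f1 overlapped (0.67 ± 0.40, adjusted p = 0.315). Mcm4 and Mcm7 stood at 0.34 ± 0.10 and 0.35 ± 0.15 (adjusted p = 0.0691 and 0.181). Timeless was the 1 member with both marked GFP libraries below both unmarked ones, at 50.4 and 46.8 CPM in marked and 51 and 56 CPM in unmarked cells (-0.14 ± 0.21, adjusted p = 0.731). Of the other replication genes 6 were higher here, led by Asf1b (1.52 ± 0.22, adjusted p = 0.00695), Slbp (0.92 ± 0.16, adjusted p = 0.0121) and Uhrf1 (1.48 ± 0.26, adjusted p = 0.0131), and Orc2 to Orc5 did not pass, with log2 fold changes from -0.35 to -0.15. That count of 6 fell without marked GFP library 3, unmarked GFP library 4 or any Thy1.1 library, as did the count over all genes. The mitosis list had 4 of 18 higher (Birc5, Ccnb1, Cdk1 and Aurka, by 1.41 to 2.39) and the G1/S list 3 of 9 (Ccna2, Ccne2 and Ccne1, by 1.19 to 1.30), with 3 of 11 of the other E2F and pocket protein genes (E2f4, Rb1 and Tfdp1, by 0.35 to 0.66).

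The next comparison set GFP against Thy1.1 among unmarked cells, with 4 libraries that the first did not use. No member passed in edgeR, where 0.0643% of all genes were called higher and 0.1% lower; 24 members had an unadjusted p under 0.05, against 11.9% of all genes, and DESeq2 called 6 higher, against 2.36% of all genes. Without unmarked GFP library 4, edgeR called 2 higher, Lig1 and Clspn, against 0.399% of all genes in that fit. The direction was mostly the same: 43 of 48 log2 fold changes were positive, against 6925 of all 13989 genes, both GFP libraries lay above both Thy1.1 libraries for 32 members, against 21.4% of all genes, and the median was 0.41 against 0 over all genes. The smallest adjusted p were those of Lig1, at 62.8 and 44.5 CPM in unmarked GFP and 26.4 and 24.9 CPM in unmarked Thy1.1 cells (1.06 ± 0.19, adjusted p = 0.07), Clspn, at 9.39 and 3.34 CPM in unmarked GFP and 0.699 and 0.654 CPM in unmarked Thy1.1 cells (3.23 ± 0.59, adjusted p = 0.0795), Mcm3 (0.84 ± 0.16, adjusted p = 0.0894) and E2f8 (3.05 ± 0.59, adjusted p = 0.0909). With DESeq2 these 4 passed together with Cdc6 (1.81, adjusted p = 0.0229) and E2f1 (1.4, adjusted p = 0.0409). The other helicase genes had edgeR values from 0.32 to 0.44 and non-overlapping groups. Pold1 was the 1 member with both GFP libraries below both Thy1.1 libraries, at 64.4 and 60.6 CPM in unmarked GFP cells, against 80.3 and 72.7 CPM in unmarked Thy1.1 cells (-0.29 ± 0.12, adjusted p = 0.411). Unmarked GFP library 3, which held the dendritic cell genes, was above library 4 for most members. The median difference between library 4 and library 3 was -0.28 on the log2 scale, with 11 of 48 members higher in library 4. In marked GFP cells that difference was -0.26, with 12 of 48 higher in library 4. Between Thy1.1 libraries 2 and 1 it was -0.11 in marked cells (12 of 48 higher in library 2) and -0.02 in unmarked cells (22 of 48). None of the 4 lists beside the members had a called gene between unmarked GFP and unmarked Thy1.1 cells. The smallest adjusted p of each were those of Mtbp (1.07 ± 0.25, adjusted p = 0.148), Rb1 (0.44 ± 0.09, adjusted p = 0.104), Ccna2 (1.30 ± 0.22, adjusted p = 0.0629) and Prc1 (1.91 ± 0.28, adjusted p = 0.0525), while Orc2 to Orc5 had log2 fold changes from -0.24 to 0.05.

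The 2 comparisons of GFP with Thy1.1 share no library, so their values can be set side by side. Both log2 fold changes were positive for 41 of 48 members (85.4%) and for 32.9% of all genes. The change was larger among marked cells for 45 members (93.8%) and for 52.3% of all genes. Across the 48 genes, which are not independent replicates, Pearson's correlation of the 2 log2 fold changes was 0.62 and Spearman's was 0.84, against 0.24 and 0.37 across all genes. Mcm10 and E2f7 departed most from the rest, with 9.95 and 7.56 among marked cells and 1.34 and 1.05 among unmarked cells.

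**Figure D5:**
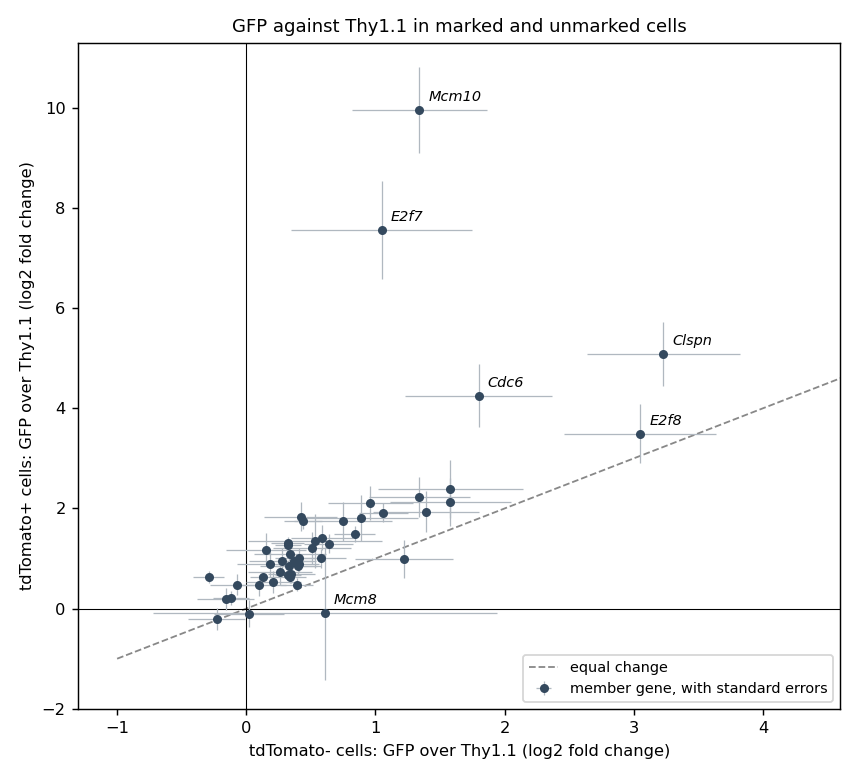
Log2 fold change of GFP over Thy1.1 among marked cells (y axis) against the same among unmarked cells (x axis) for the 48 genes, with standard errors as bars and the line of equal change dashed. Of the 48 points 45 lie above the dashed line, and Mcm10 and E2f7 lie farthest from it.

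Whether the GFP to Thy1.1 difference itself differed between marked and unmarked cells was tested as an interaction. Mcm10 (8.61 ± 0.99, adjusted p = 0.0165) and Mcm2 (0.96 ± 0.15, adjusted p = 0.0478) passed, with a larger difference among marked cells, where 0.0929% of all genes passed in that direction and 0.35% in the other. Mcm2 had a log2 fold change of 1.27 ± 0.11 among marked and 0.32 ± 0.10 among unmarked cells. The next members were Mcm5 (1.29 ± 0.21, adjusted p = 0.0532), E2f7 (6.51 ± 1.15, adjusted p = 0.0722), Pold1 (0.93 ± 0.18, adjusted p = 0.086) and Mcm6 (0.99 ± 0.19, adjusted p = 0.0863). The interaction is the change among marked cells minus that among unmarked cells. Its positive values in 45 of 48 members therefore restate the count above, which stood against 52.3% of all genes. The median was 0.63 against 0.03 over all genes, and 19 members had an unadjusted p under 0.05, against 12.8% of all genes. Of the others that were always read, Mcm3, Mcm4, Mcm7, Cdt1, Orc1, Pcna, Cdc6, E2f1 and E2f8 had values from 0.35 to 2.45 and did not pass. Neither called member kept its call in every fit that left out 1 library, and Mcm2 lost its call in each. When any 1 Thy1.1 library or unmarked GFP library 4 was left out, both lost their calls, and calls over all genes fell too. Beside the members, Uhrf1 passed (2.70 ± 0.37, adjusted p = 0.0326), with 121 and 76.5 CPM in marked GFP, 11.5 and 8.78 CPM in marked Thy1.1, 39 and 31.8 CPM in unmarked GFP and 20.8 and 26.4 CPM in unmarked Thy1.1 cells. Its call was lost in 6 of the 8 fits that left out a library. Orc2 to Orc5 had interaction values from -0.44 to -0.07 and did not pass.

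The last comparison set marked against unmarked Thy1.1 cells. No member passed in edgeR, as was true of all genes (0% called higher and 0% lower), with 2 members and 1063 genes (7.6%) at an unadjusted p under 0.05. Only 19 of 48 members had a positive log2 fold change and the median was -0.01, against 0.01 over all genes. The 2 members were Mcm10, at 0.0409 and 0 CPM in marked and 5.21 and 2.9 CPM in unmarked Thy1.1 cells, and E2f7, at 0.0409 and 0.114 CPM in marked and 1.33 and 5.02 CPM in unmarked Thy1.1 cells (-5.33 ± 0.92, adjusted p = 0.315). For Mcm10 the counts were 2 in marked and 370 in unmarked cells, a ratio of 0.00526 with a 95% interval of 0.000634 to 0.0191 for counting error only (edgeR adjusted p = 0.259). DESeq2 called both lower in marked cells, as it did 0.536% of all genes, with -7.55 for Mcm10 and -5.37 for E2f7. The 46 others lay between -0.94 and 0.85: the helicase genes Mcm2 to Mcm7 had log2 fold changes from -0.31 to 0.03, Cdc6 -0.94 ± 0.57, Cdt1 -0.01 ± 0.19, Orc1 0.14 ± 0.39, Pcna 0.01 ± 0.18, E2f1 0.12 ± 0.40 and E2f8 0.85 ± 0.56, with adjusted p from 0.658 to 1. Orc2 to Orc5 lay between -0.18 and 0.14, and of the lists beside the members no gene passed. A p that misses the threshold with 2 libraries a group does not show equal levels.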

How the data were processed

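Per the file headers, the 1 table deposited by the authors holds counts of reads by gene, and its whole values were not normalized. The labels' protocols give polyA RNA amplified with SMART-Seq v4 in 12 cycles, KAPA Hyper Prep libraries with 8 PCR cycles and 50-nt paired ends, a kit that does not mark strand. The submitters' processing notes name DESeq without a version; the aligner and the build of the counts are not given in the sources used. Of 24116 rows, 8 had no gene name (0.02148% to 0.02638% of the counts) and were left out. GFP libraries carry the numbers 3 and 4 in the table and 1 and 2 in the titles, so GFP columns were matched to their population only.

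With R 4.3.3 and edgeR 4.0.16 (limma 3.58.1), genes were filtered at a minimum count of 10 and scaled by TMM (0.9778 to 1.025). A quasi-likelihood model with robust dispersion and a mean per population was fitted to all 8 libraries, leaving 4 residual degrees of freedom and a biological coefficient of variation of 0.3992. P-values were adjusted by Benjamini-Hochberg over 13989 genes with a threshold of 0.05. Errors come from the F statistic. DESeq2 1.42.0 and other settings were alternatives, and the pipeline was tested on simulated data.

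The members, the lists beside them and the rule for named genes were chosen with earlier results of these data known. Every member is named in the first comparison. Elsewhere the rule names called members, Mcm2 to Mcm7, Cdc6, Cdt1, Orc1, Pcna, E2f1 and E2f8, up to 4 genes of each other list by adjusted p, and Orc2 to Orc5. Other members named there (Timeless, Pold1, Clspn and E2f7 among them) were chosen after their values were seen. Exon lengths and overlaps come from GENCODE vM21, promoters from RefSeq GRCm38.p6. Searches of the proteins for motifs were not run.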

Additional observations from a re-analysis of the deposited data

Results flagged for a closer look

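In 3 genes the difference between GFP and Thy1.1 cells itself differed between marked and unmarked cells by the interaction term of edgeR, with a larger difference among marked cells. The log2 interaction was 8.61 ± 0.99 for Mcm10 (adjusted p = 0.0165), 0.96 ± 0.15 for Mcm2 (adjusted p = 0.0478) and 2.70 ± 0.37 for Uhrf1 (adjusted p = 0.0326). For Mcm10 it rests on 2 counts in marked Thy1.1 cells, and it was 11.66 without marked Thy1.1 library 1 (adjusted p = 0.0798), 7.71 without marked Thy1.1 library 2 (adjusted p = 0.0767) and 9.21 without unmarked GFP library 3 (adjusted p = 0.0345). With each library left out in turn, the call was lost in 5 of 8 fits for Mcm10 (adjusted p from 0.0238 to 0.116), in all 8 for Mcm2 (0.0524 to 0.254) and in 6 of 8 for Uhrf1 (0.0169 to 0.166).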

How the results depend on the processing

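Alternatives were RLE size factors, library totals, no filter, a minimum count of 50, DESeq2, a replicate block, a fit of only the 2 populations compared, and each library left out; a population left with 1 library is then assumed to vary like the others. In marked GFP over marked Thy1.1 cells the members called higher ranged from 10 to 37 without a library and those lower from 0 to 1; other replication genes called higher ranged from 2 to 9 and were 6 with only the 2 populations, and those lower ranged from 0 to 1. In marked over unmarked GFP cells the members higher were 19 with DESeq2, 0 with only the 2 populations and 1 to 14 without a library, those lower 0 to 1, other replication genes higher 1 with only the 2 populations and 1 to 5 without a library, and lower 0 to 1. In unmarked GFP over unmarked Thy1.1 cells the members higher were 2 with no filter, 2 at a minimum of 50, 6 with DESeq2 and 0 to 2 without a library, and other replication genes 2 with DESeq2 and 0 to 1 without a library. In marked over unmarked Thy1.1 cells DESeq2 called 2 members and 1 other replication gene lower. For the interaction, members were 1 with RLE, 4 with no filter, 4 at a minimum of 50, 8 with DESeq2 and 0 to 3 without a library, and other replication genes 4 with DESeq2 and 0 to 1 without a library. Calls over all genes shifted as well. In the order of these comparisons, the genes called higher were 1120, 873, 9, 0 and 13 of 13989 in the main fit. They were 1572, 1402, 330, 73 and 182 with DESeq2. With only the 2 populations they were 888 of 13264 and 107 of 13130 in the first 2 comparisons. For unmarked GFP over unmarked Thy1.1 cells they were 58 of 18654 with no filter and 57 of 12331 at a minimum of 50. For the interaction they were 20 in both fits. The causes of these shifts were not tested. The sign of a called member turned in 0 cases. Medians over members ranged from 0.81 to 1.17, 0.5 to 0.79, 0.32 to 0.51, -0.07 to 0.02 and 0.43 to 0.74 in those 5 comparisons. Without 1 library, higher calls over all genes fell in most fits of the first 2 comparisons and of the interaction. With the replicate block (odd against even column number) the members called were 34, 14, 1, 0 and 2. Over all 13989 genes the higher calls with this block were 1160, 906, 22, 0 and 13. GFP columns are numbered 3 and 4 and Thy1.1 columns 1 and 2, so this block joins odd with odd and even with even numbers. Deviations of libraries so joined correlated by 0.063 to 0.119 over all genes, with 2 pairs a comparison, and the numbers do not establish pairs. Mcm10 and E2f7 had 2 and 7 counts in marked Thy1.1 cells, and for Mcm8 the marked GFP libraries of 358 and 3 counts gave the largest error of all members between the marked populations (1.33).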
